A study of Mus musculus with 10 samples.

Results

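The genes described here are those of the cell cycle and of DNA replication on a mouse cDNA array. They were taken by symbol: cyclins A to H, numbered cyclin-dependent kinases, and genes whose symbols begin with the usual names for replication, mitosis and checkpoint proteins, such as Mcm, Orc, Cenp, Bub and Smc. Cdc42 and Cdc37 were left out. The rule took 154 clones of 105 genes, out of 15600 clones, of which 9866 carry a single symbol and stand for 7142 genes. By role, 42 clones of 26 genes encode cyclins, cyclin-dependent kinases (CDKs) or their Cdc25 phosphatases, 42 clones of 28 genes act in replication, and 57 clones of 42 genes act in mitosis or its checkpoint. A further 13 clones of 9 genes were taken only through a Cdc symbol. Several members have other main functions. The Cdc42 effectors act on the cytoskeleton, Cdc73 belongs to a complex of RNA polymerase II, and cyclin C works in the Mediator complex of transcription.

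RNA came from M-1 cells, an epithelial line of the mouse cortical collecting duct that was derived from a mouse carrying the early region of a simian polyomavirus. Cells were kept without steroid and then received either 100 nM dexamethasone, a synthetic glucocorticoid, or steroid-free medium, for 3 h. Each array was read in 2 colours. On 3 arrays, here called treated pairs 1 to 3, the Cy5 channel held RNA of dexamethasone-treated cells and the Cy3 channel held RNA of control cells. In control pairs 1 and 2 both channels were titled control. The labels contradict each other, because the treatment field names dexamethasone for channels titled control, and every direction below rests on the titles. Dyes were not swapped, so dye and treatment run together on the treated pairs.

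Cyclins switch on the CDKs that carry a cell from one phase to the next, and Cdc25 phosphatases remove the phosphates that hold CDKs back. Origin recognition complexes load the Mcm helicase, which opens DNA for polymerases that are clamped in place by Pcna and fed with nucleotides by ribonucleotide reductase. In mitosis, condensins and topoisomerase II shape the chromosomes, the checkpoint waits for spindle attachment, and the anaphase-promoting complex then marks cyclin B and securin for destruction. Glucocorticoids act through a nuclear receptor that binds DNA, and they slow proliferation in many cell types.

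The control pairs held values for nearly all spots, with 305 and 301 of the 308 member spots. The treated pairs held only spots whose ratio lay far from the centre, 3778 to 4002 of 31200 spots on the whole array, and for the members 33, 38 and 45 spots on treated pairs 1, 2 and 3. A clone with no treated value had a ratio near the centre or no usable spot, and these cases cannot be told apart. All ratios below are centred log2 Cy5/Cy3 ratios, in which 1 stands for a ratio of 2. A spot is called higher or lower by the sign of that ratio. Treated values had to lie away from the centre to be listed, while control values did not. This listing alone favours treated values beyond both control values, and the share of all clones with such values was not counted. Fewer cells in a phase and less RNA per cell cannot be told apart in such bulk RNA. Of the fixed marker lists, the epithelial one had 11 clones of 6 genes. Of these, 9 clones of 5 genes (Cldn7, Epcam, Krt18, Krt19 and Krt8) lay above the median in all 4 control-pair channels. Neither clone of Cdh1, the remaining epithelial gene, did so. The only principal-cell marker with a clone did not either, so the array could not check the collecting duct identity further. No clone of the intercalated-cell, proximal-tubule or leukocyte and endothelium lists did so, and of 12 clones of 7 fibroblast genes 2 did, 1 each of Col1a2 and Dcn. The part of other cell types in the results was not tested.

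No cell cycle or replication clone passed the test of treated against control pairs. Of the 154 clones, 78 were listed on at least 1 treated pair, which is 50.6%, beside 51.8% of all clones. These 78 entered a limma fit of the treated pairs on which a clone was listed against the control pairs, with Benjamini-Hochberg adjustment over 8080 clones. None had an adjusted p under 0.05 in either direction, and the smallest was 0.145. Over all clones, 0% were called higher and 0.0124% lower. At an unadjusted p under 0.05, 10 members lay higher and 8 lower, together 23.1% of the 78. Of all clones fitted, 16.4% lay higher and 15.8% lower at that p, together 32.2%. The median limma difference was 0.0072 for the members and 0.061 for all clones fitted. A fit on the 213 clones valued in all 5 pairs held 3 members and called none of them, with a smallest adjusted p of 0.208, beside 0% of its clones higher and 0.469% lower. At an unadjusted p under 0.05 it held 1 member, Trip13, on the lower side, beside 10.3% of its clones higher and 12.2% lower, together 22.5%.

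The direction of listed spots was also even over the members as a whole. Counting each clone by the sign that most of its listed spots had, 37 members were higher and 38 lower, with 3 tied. As shares of the 154 clones these are 24% and 24.7%, against 24.2% and 23.2% of all clones. Listing on at least 2 treated pairs with every listed spot on the same side was found for 7 members higher and 8 lower, beside 4.21% and 4.2% of all clones. Both spots of a clone were listed on the same pair for 14 members, beside 7.9% of all clones.

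Of the 154 clones, 76 were listed on no treated pair, beside 7520 of 15600 clones on the whole array. Well-known proliferation genes fell on both sides. Of the genes fixed by name, Cdk4, Pcna, Bub1b and Cdc20 had no listed clone, while Ccnd1, Mcm2, Rrm2, Birc5 and Mki67 had a listed clone. In all, 45 of the 105 genes had no listed clone: 12 cyclin and CDK genes, 13 of replication, 15 of mitosis and the checkpoint and 5 others. The share of all genes without a listed clone was not counted. The unlisted clones were not all faint spots. Cdk1, the kinase of mitotic entry, had intensities of 1672 in Cy3 and 2495 in Cy5 on control pair 1 and of 3148.5 and 2697 on control pair 2, where the channel medians were 488, 327, 867 and 1076. Plk4, the kinase of centriole duplication, stood at 991.5, 976.5, 4666.5 and 3981.5 in the same channels. By contrast, Bub1b clone 1452 stood at 390.5, 214, 449.5 and 687, under the median in each. Over all members, 24 clones lay under the median in all 4 channels, which is 15.6%, against 27.4% of all clones.

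Within the members, the role groups lay on different sides. Among cyclins and CDKs 15 clones were higher and 7 lower, while among mitosis and checkpoint clones 11 were higher and 20 lower. Replication clones were split 9 to 8, and the other Cdc genes 2 to 3. Median limma differences were 0.42 for 23 cyclin and CDK clones, 0.34 for 17 replication clones, and -0.28 for both the 32 mitosis clones and the 6 others. With values listed away from the centre, a median falls on the side that holds more clones, so it repeats the counts. The replication median was the difference of Rrm2 clone 8, the smallest of 9 above 0, with 8 below 0, and shows no shift of the group. These are counts and medians of listed clones, which had to lie away from the centre, and the difference between the groups was not tested.

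**Figure D1:**
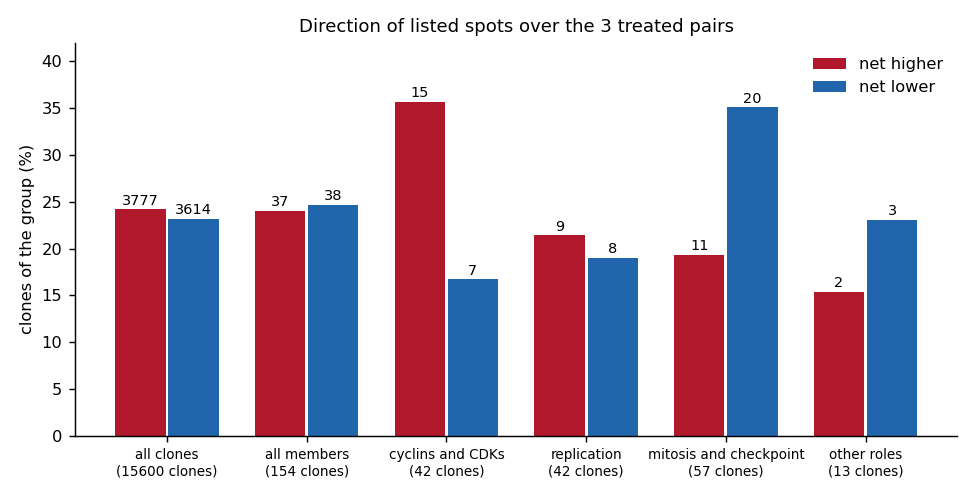
Bars give the percent of clones in each group whose listed spots over the 3 treated pairs were mostly higher (red) or mostly lower (blue), with the number of clones above each bar. Cyclins and CDKs stand at 35.7% higher and 16.7% lower, mitosis and checkpoint at 19.3% and 35.1%, and the members as a whole lie near all clones.

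Treated pair 3 supplied 14 of the 26 higher cyclin and CDK spots. Its cyclin and CDK spots were higher in 14 of 15 listed cases (93.3%), against 7 of 13 spots on treated pair 1 and 5 of 10 on treated pair 2. Without treated pair 3 the clone counts were 10 higher and 8 lower, and without treated pair 1 they were 15 and 4. Mitosis and checkpoint spots were lower on every treated pair more often than higher: 7 against 5, then 12 against 6, then 13 against 4. Without treated pair 2, 7 of these clones were higher and 15 lower. Replication counts also depended on the pair left out. Without treated pair 1 they were 5 higher and 7 lower, without treated pair 2 they were 7 and 5, and without treated pair 3 they were 7 and 4.

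Control pairs, in which both channels were titled control, gave uneven splits too. To see this, the same share of outlying ratios was kept on each control pair, 12.6% of spots. Member spots were then higher in 25 and lower in 10 cases on control pair 1, and higher in 10 and lower in 22 on control pair 2. For cyclins and CDKs control pair 2 gave 4 higher and 12 lower spots. For mitosis and checkpoint it gave 4 and 8, and control pair 1 gave 5 and 2. All clones lay near even on both, at 50.6% and 45.1% higher.

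**Figure D2:**
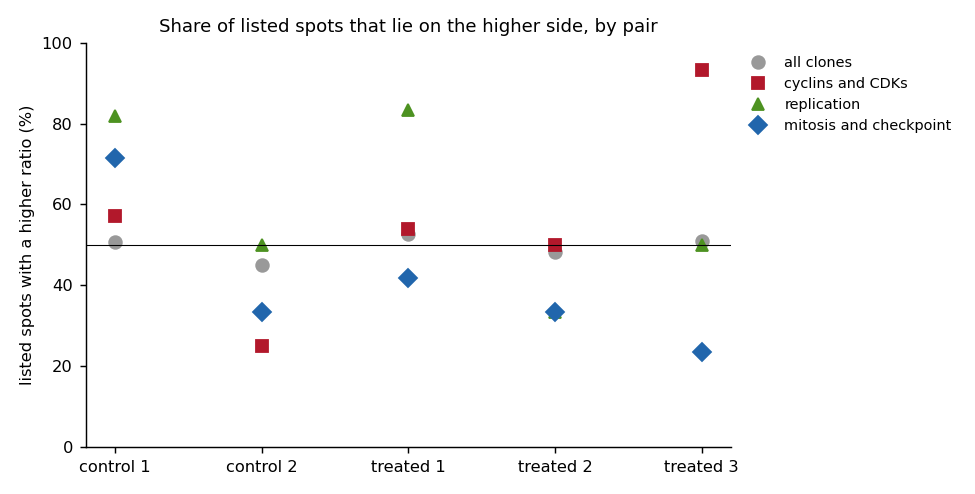
Points give the percent of listed spots with a higher ratio on each pair, control pairs being cut to the same share of outlying ratios; the line marks 50%. Mitosis and checkpoint stand at 41.7%, 33.3% and 23.5% on treated pairs 1, 2 and 3, while the control pairs range from 25% to 81.8% over the groups drawn; the 13 clones of other roles are not drawn, and on treated pair 2 the replication and mitosis points coincide at 33.3%.

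**Figure D3:**
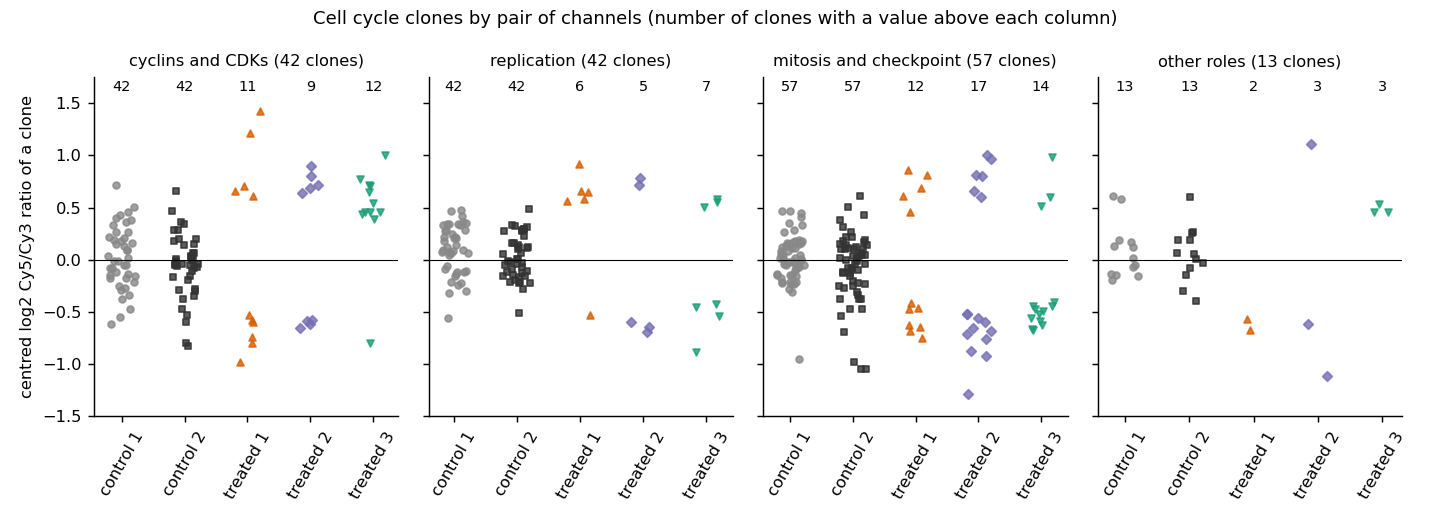
Each point is the centred log2 Cy5/Cy3 ratio of a clone on a pair, by role group, with the number of clones valued above each column. Control pairs show all clones and scatter around 0, while treated pairs show only clones away from 0, between 9 and 12 per pair for cyclins and CDKs and 12 to 17 for mitosis and checkpoint.

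Cyclins and CDKs were listed on 23 of 42 clones, 54.8%. At an unadjusted p under 0.05, 5 lay higher (Ccnc, Ccnd2, Cdc25a, Cdk18 and Ccng1) and 2 lower (clones of Cdc25a and Cdc25c), which is 30.4% of 23 fitted, beside 32.2% of all clones. Limma called none after adjustment. The Ccnc clone (clone 9266, numbered by order on the array) encodes cyclin C, the partner of Cdk8 in Mediator. Its ratios were -0.08 and -0.28 on control pairs 1 and 2, and 1.43 and 0.77 on treated pairs 1 and 3. Both treated values lay above both control values, a position that the listing of outlying treated spots alone favours. The limma difference was 1.28 (SE 0.29, adjusted p = 0.145). When only clones with both spots listed on a pair were used, treated pair 1 alone remained for Ccnc and the difference was 1.61 with a limma adjusted p of 0.0107, over 1233 clones of which 8.11% were called higher and 7.7% lower. Over the other settings its limma adjusted p ran from 0.0691 to 0.979, and its sign turned when Cy5 channels were compared alone.

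Ccnd2, which encodes the growth-factor responsive cyclin D2, has 6 clones, and they did not lie on one side: 3 were higher, 1 lower, 1 tied and 1 not listed. Clone 12887 was the only Ccnd2 clone with a value on every treated pair. It stood at -0.38 and 0.20 on the control pairs and at -0.53, -0.57 and -0.80 on treated pairs 1, 2 and 3. All 3 treated values lay below both control values, a position that the listing of outlying treated spots alone favours. The limma difference was -0.55 (SE 0.24, adjusted p = 0.156), and an exact two-sided permutation test gave p = 0.1, the smallest that 3 against 2 pairs allow. Clone 2869 of the same gene lay on the other side, at -0.08 and -0.040 on the control pairs and 0.61 and 0.46 on treated pairs 1 and 3, with a limma difference of 0.59 (SE 0.22, adjusted p = 0.146).

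Ccnd1, the cyclin D1 gene, was listed on treated pair 2 alone, at 0.90, above its control values of 0.43 and 0.29 (limma difference 0.54, SE 0.29, adjusted p = 0.207). Ccng1, which encodes the p53-responsive cyclin G1, has 3 clones, and all 3 were listed higher, each on a single treated pair. Ccnf encodes cyclin F, the substrate receptor of a ubiquitin ligase. Its clone 15303 stood at 0.15 and -0.83 on the control pairs and at -0.60 and -0.65 on treated pairs 1 and 2. Both treated values lay between the control values, so the groups overlap. The limma difference was -0.29 (SE 0.35, adjusted p = 0.515), and without control pair 1 it was 0.20. The 3 clones of Ccna2, the cyclin A gene of S phase and mitosis, were listed on no treated pair.

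Cdc25a, the phosphatase that acts on Cdk2 at entry into S phase, had 2 clones higher, 1 lower and 1 not listed. Clone 414 stood at -0.16 and -0.80 on the control pairs and at 0.71 on both treated pairs 1 and 3, with a limma difference of 1.19 (SE 0.28, adjusted p = 0.145). Clone 1386 stood at 0.40 and 0.20, then at 1.22 and 0.65 on the same treated pairs, with a difference of 0.63 (SE 0.27, limma adjusted p = 0.158). For both clones the treated values lay above the control values, which the listing of outlying treated spots favours. Clone 11712 lay on the other side, at 0.16 and 0.15 on the control pairs and -0.74 on treated pair 1, which also carried the other clones' higher values. Cdc25c, the phosphatase of mitotic entry, was listed on treated pair 1 at -0.80, below 0.13 and -0.05 on the control pairs (limma difference -0.84, SE 0.29, adjusted p = 0.146).

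Among the kinases, Cdk7 and Cdk13 were listed on treated pair 2 at -0.59 and 0.69, Cdk18 on treated pair 2 at 0.80 and Cdk16 on treated pair 3 at 0.55. Cdk2, the partner of cyclins E and A, was listed on 2 treated pairs. Its clone stood at 0.51 and 0.36 on the control pairs and at 0.72 and 0.44 on treated pairs 2 and 3, so that the groups overlap, and the limma difference was 0.15 (SE 0.23, adjusted p = 0.622). Cdk4, the partner of D cyclins, has 2 clones, and neither was listed on a treated pair. Their deposited intensities were 2013 to 2471 on control pair 1 and 4886.5 to 6907 on control pair 2. Cdk1, Cdk6, Cdk8, Cdk9, Ccnb2 and Ccne1 were likewise not listed. In all, 12 of the 26 cyclin and CDK genes had no listed clone, a share that was not counted over all genes.

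The promoter of Cdc25a is shown because clone 414 had the highest difference of the Cdc25 clones and the promoter holds an E2F site, and that of Ccnf because its clones were both lower and it holds the letters known from mitotic promoters. Both are the 250 bases before the RefSeq gene start (GRCm38.p6), read on the gene's strand, for Cdc25a chr9:109875329-109875578 on the plus strand and for Ccnf chr17:24251410-24251659 on the minus strand. Capitals mark an E2F site (TTTCGCGC or TTTGGCGC), the cell cycle homology region CHR (TTTGAA or TTCGAA) and CCAAT, each on either strand.
Cdc25a: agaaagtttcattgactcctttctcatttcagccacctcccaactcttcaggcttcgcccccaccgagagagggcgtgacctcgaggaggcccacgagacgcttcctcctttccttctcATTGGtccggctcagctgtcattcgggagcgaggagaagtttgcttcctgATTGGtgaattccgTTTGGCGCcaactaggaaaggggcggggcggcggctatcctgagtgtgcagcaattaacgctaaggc
Ccnf: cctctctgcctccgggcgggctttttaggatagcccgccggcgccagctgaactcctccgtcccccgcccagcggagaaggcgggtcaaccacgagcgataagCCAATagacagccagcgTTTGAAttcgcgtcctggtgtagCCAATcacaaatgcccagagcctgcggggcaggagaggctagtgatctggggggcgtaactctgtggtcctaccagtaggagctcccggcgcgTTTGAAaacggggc
In Cdc25a the E2F letters begin 67 bases before the start, and both CCAAT matches are on the opposite strand. Ccnf has 2 CHR and 2 CCAAT matches and no E2F match.

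Replication genes were listed on a treated pair for 17 of 42 clones, which is 40.5%, beside 51.8% of all clones. No clone was called by limma, and 1 of the 17, Gins4, had an unadjusted p under 0.05. On control pair 1, where both channels held control RNA, 29 of the 42 replication clones had a ratio above 0, with a median of 0.11, and on control pair 2 it was 21 of 42.

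Of the helicase and its loaders, Mcm2, a subunit of the Mcm2-7 ring, was listed on treated pair 1 at 0.65, above 0.35 and -0.016 on the control pairs (limma difference 0.49, SE 0.31, adjusted p = 0.266). Gins4, a subunit of the GINS complex that activates the helicase, was listed on treated pair 2 at -0.69, below 0.29 and 0.13, and had the lowest difference of the group at -0.90 (SE 0.29, limma adjusted p = 0.145). Orc4, a subunit of the origin recognition complex, stood at -0.64 on treated pair 2, below 0.25 and -0.14 (limma difference -0.69, SE 0.32, adjusted p = 0.176), and its 2 other clones were not listed. Orc2 had 1 clone higher and 2 not listed. Mcm3ap, which shares its name with the helicase but encodes a germinal-centre and mRNA export protein, had the highest difference of the group at 0.65 (SE 0.31, limma adjusted p = 0.18), from 0.91 on treated pair 1 against 0.42 and 0.10. Thus Mcm2 and 1 clone of Orc2 lay higher, and Gins4 and 1 clone of Orc4 lower, each on the strength of a single pair. Of the further Mcm clones, 1 each of Mcm3 (0.71), Mcm9 (0.56) and Mcm10 (0.78) was higher and that of Mcm6 (-0.43) lower. Each of these also rested on a single pair, and the remaining Mcm clones were not listed.

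Ribonucleotide reductase supplies deoxynucleotides, and Rrm2 is its S-phase subunit. Of 3 Rrm2 clones, 2 were higher and 1 was not listed. Clone 8 stood at 0.58 on treated pair 1 beside 0.33 and 0.14 on the control pairs, and clone 8534 at 0.50 on treated pair 3 beside 0.06 and -0.23. Their limma differences were 0.34 (SE 0.29, adjusted p = 0.374) and 0.59 (SE 0.30, adjusted p = 0.201). Of 3 clones of Pole4, a histone-fold subunit of DNA polymerase epsilon, 2 were lower and 1 was not listed.

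Clone 15209 of Pole4, singled out after its values were seen, showed how much a single spot can decide. On treated pair 1 a single spot gave 0.66, and on treated pair 3 both spots together gave -0.88, beside 0.22 and 0.29 on the control pairs. With both values the limma difference was -0.36 (SE 0.48, adjusted p = 0.552). With clones listed in both spots alone it was -1.14 (adjusted p = 0.0321 by limma over 1233 clones, of which 8.11% were called higher and 7.7% lower). Pcna, the sliding clamp, was not listed on any treated pair, although it was among the brightest members, with intensities of 4269 in Cy3 and 6478 in Cy5 on control pair 1 and 10087 and 7839 on control pair 2. Its control ratios were 0.071 and -0.15. In all, 13 of the 28 replication genes had no listed clone, a share that was not counted over all genes.

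Mitosis and checkpoint genes held the most lower clones, 20 of 57, and 32 of the 57 were listed, which is 56.1%. At an unadjusted p under 0.05, 4 clones lay higher (2 of Smc4, with Smc6 and Cenps) and 4 lower (Cdc27, Smc1a, Aurkc and Trip13), of 32 fitted. This is 25%, beside 32.2% of all clones fitted, and none was called by limma after adjustment.

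Trip13, the ATPase that remodels the checkpoint protein Mad2, was, with Ccnd2 clone 12887, a member listed lower on all treated pairs. Its ratios were 0.17 and -0.0040 on the control pairs and -0.41, -0.69 and -0.45 on treated pairs 1, 2 and 3. Every treated value lay below both control values, but the listing of outlying treated spots alone favours such a position. The limma difference was -0.59 (SE 0.20, adjusted p = 0.145), and an exact two-sided permutation test gave p = 0.1, the smallest this design allows. Its intensities, however, differed far more between arrays than between the channels of an array. Deposited intensities were 832 and 853.5 in Cy3 of control pairs 1 and 2, against 8414, 7965 and 7543 in Cy3 of treated pairs 1, 2 and 3, all of them channels of control RNA. In Cy5 they were 990 and 1055 on the control pairs and 6492, 5741 and 5454 on the treated pairs. After each pair was scaled to the control pairs, the treated pairs were brighter by 3.48 in Cy3 and 2.88 in Cy5 on the log2 scale. With Cy5 channels alone the Trip13 difference was 2.88, and it was 0.054 in a fit of channels with a replicate block for the pair. What sets the treated arrays apart at these spots was not tested.

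Mad2l2 is a relative of Mad2 that inhibits the anaphase-promoting complex and serves in translesion synthesis. Its clone stood at 0.34 and -0.09 on the control pairs and at -0.47 and -0.45 on treated pairs 1 and 3 (limma difference -0.58, SE 0.24, adjusted p = 0.157). The treated values lay below the control values, which the listing of outlying treated spots favours. Both clones of Bub1b, the checkpoint kinase-like protein BubR1, and the clone of Cdc20, the activator of the anaphase-promoting complex that BubR1 holds back, were not listed. Neither were Bub1, Mad2l1, Plk1 or Plk4.

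Of the subunits of the anaphase-promoting complex, Cdc23 and Cdc27 are members. Cdc23 has 2 clones and both were lower. Clone 1202 stood at 0.12 and -0.48 on the control pairs and at -0.60 and -0.47 on treated pairs 2 and 3, of which the latter lay just within the control range (limma difference -0.36, SE 0.27, adjusted p = 0.319). Clone 12606 was listed on treated pair 3 at -0.49, below 0.08 and 0.61 (limma difference -0.84, SE 0.35, adjusted p = 0.158). Cdc27, a scaffold subunit of the same complex, was listed on treated pair 2 at -0.65, below 0.45 and 0.11, and had the lowest difference of the group at -0.93 (SE 0.31, limma adjusted p = 0.145). Its second clone was not listed. Other subunits, outside the members, lay on both sides. Anapc2 had a limma difference of 0.65, Anapc4 had 0.86 and 0.92 for clones 10192 and 14896 but -0.76 for clone 11982, and Anapc1, Anapc5 and Anapc7 were lower, none with an adjusted p under 0.05. Cdc14b, a phosphatase named after the yeast enzyme of mitotic exit, had 2 clones lower and 1 tied. Its clone 7772 stood at -0.04 and -0.98 on the control pairs and at -0.88 and -0.58 on treated pairs 2 and 3, within the control range (limma difference -0.22, SE 0.35, adjusted p = 0.621), and without control pair 1 the difference was 0.25.

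Chromosome structure genes lay on both sides. Smc4, a condensin subunit, had 2 clones higher and 1 not listed. Its clone 6317 had the highest difference of all members at 1.30 (SE 0.45, limma adjusted p = 0.145), from 0.82 on treated pair 1 against -0.95 and -0.011 on the control pairs, so that the low value of control pair 1 entered it. Smc5 and Smc6 form a complex that resolves joined chromatids, and their clones lay on opposite sides. Smc5 stood at -0.92 and -0.66 on treated pairs 2 and 3, below 0.15 and -0.47 (limma difference -0.63, SE 0.28, adjusted p = 0.165). Smc6 stood at 0.69 and 0.98 on treated pairs 1 and 3, above 0.19 and 0.12 (limma difference 0.68, SE 0.23, adjusted p = 0.145). Top2b, the topoisomerase II form that is not tied to division, stood at -0.52 and -0.56 on treated pairs 2 and 3, below -0.22 and 0.27 (limma difference -0.57, SE 0.25, adjusted p = 0.164).

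Kinetochore genes were not on one side either. Cenpe, the kinesin of chromosome alignment, was listed on all treated pairs with mixed signs, at -0.47, 1.00 and -0.68, against 0.41 and -0.37 on the control pairs. Its limma difference was -0.065 (SE 0.50, adjusted p = 0.924), and the exact permutation p was 0.9. Cenps, a histone-fold protein of the kinetochore, was listed on treated pair 2 at 0.97, above -0.15 and 0.14, with a difference of 0.97 (SE 0.30, limma adjusted p = 0.145). Birc5, the passenger protein survivin, was listed on treated pair 3 at -0.52, below 0.06 and -0.24 (limma difference -0.43, SE 0.30, adjusted p = 0.296). Mki67, the proliferation marker Ki-67, was listed on treated pair 3 at 0.52, the mean of both spots. This was close to its value of 0.47 on control pair 1 (0.18 on control pair 2), with a limma difference of 0.19 (SE 0.30, adjusted p = 0.624).

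The promoters of Mki67 and Cenps are shown as the proliferation marker of the set and as the only member promoter with a full glucocorticoid response element, which was searched on both strands as GNACA, 3 bases of any kind and TGTNC. Coordinates are chr7:135716380-135716629 for Mki67 and chr4:149137601-149137850 for Cenps, both on the minus strand of GRCm38.p6 from RefSeq. Capitals mark CHR and CCAAT matches in Mki67 and the response element in Cenps.
Mki67: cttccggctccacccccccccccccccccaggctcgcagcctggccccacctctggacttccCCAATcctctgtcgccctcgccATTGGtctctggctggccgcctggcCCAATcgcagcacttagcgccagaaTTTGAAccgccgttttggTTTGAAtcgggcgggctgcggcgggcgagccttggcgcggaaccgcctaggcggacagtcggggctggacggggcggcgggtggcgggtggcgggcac
Cenps: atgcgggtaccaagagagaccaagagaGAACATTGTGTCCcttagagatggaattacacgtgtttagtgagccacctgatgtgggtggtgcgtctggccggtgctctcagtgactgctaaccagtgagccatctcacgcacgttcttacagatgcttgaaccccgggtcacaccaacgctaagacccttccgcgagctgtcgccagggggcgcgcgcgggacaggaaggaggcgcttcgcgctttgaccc
The response element of Cenps begins 223 bases before the start, and Mki67 has 2 CHR and 3 CCAAT matches. A match is a run of letters and says nothing on whether a factor binds there in M-1 cells.

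Across the members, 92 of 105 genes had a RefSeq promoter. E2F sites were found in 7 of the 92, which is 7.61%, against 0.673% of 27025 promoters of all genes and 0.863% of 17491 promoters of protein-coding genes. The 7 genes were Cdc25a, Cdk1, Cenpl, Mcm5, Mcm6, Orc1 and Rfc3, and all 7 promoters also held CCAAT. Of these genes only Cdc25a and Mcm6, a helicase subunit with a lower ratio, were listed on a treated pair. By role E2F sites lay in 4 of 25 replication promoters, 2 of 19 cyclin and CDK promoters and 1 of 39 mitosis promoters. CCAAT was present in 51.1% of member promoters against 34.5% of all, and CHR in 21.7% against 17.4%. In the mitosis group CHR stood at 28.2%. The glucocorticoid response element was found in 1 member promoter (1.09%) and in 0.381% of all. Among genes with clones on the higher side 1 of 26 promoters had an E2F site, and among those on the lower side it was 1 of 25.

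The genes taken through a Cdc symbol alone held the lowest difference of all members. Clone 6300 of Cdc42se2, a small Cdc42 effector, was listed on treated pair 2 at -1.12, below 0.12 and -0.40 (limma difference -0.98, SE 0.34, adjusted p = 0.146). The other clone of this gene, 5354, was tied, at -0.57 on treated pair 1 and 0.54 on treated pair 3 (limma difference -0.061, SE 0.39, adjusted p = 0.908). Cdc42ep5, another Cdc42 effector, stood at 1.11 and 0.45 on treated pairs 2 and 3, above -0.14 and 0.19 (limma difference 0.75, SE 0.29, adjusted p = 0.149). Cdc42ep1 of the same family had a difference of 0.40. Cdc73 has 2 clones and both were lower, with a limma difference of -0.56 (SE 0.29, adjusted p = 0.203) for clone 4479. Without treated pair 2, 1 clone of this group was lower in place of 3, and without treated pair 3, 1 was higher in place of 2.

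**Figure D4:**
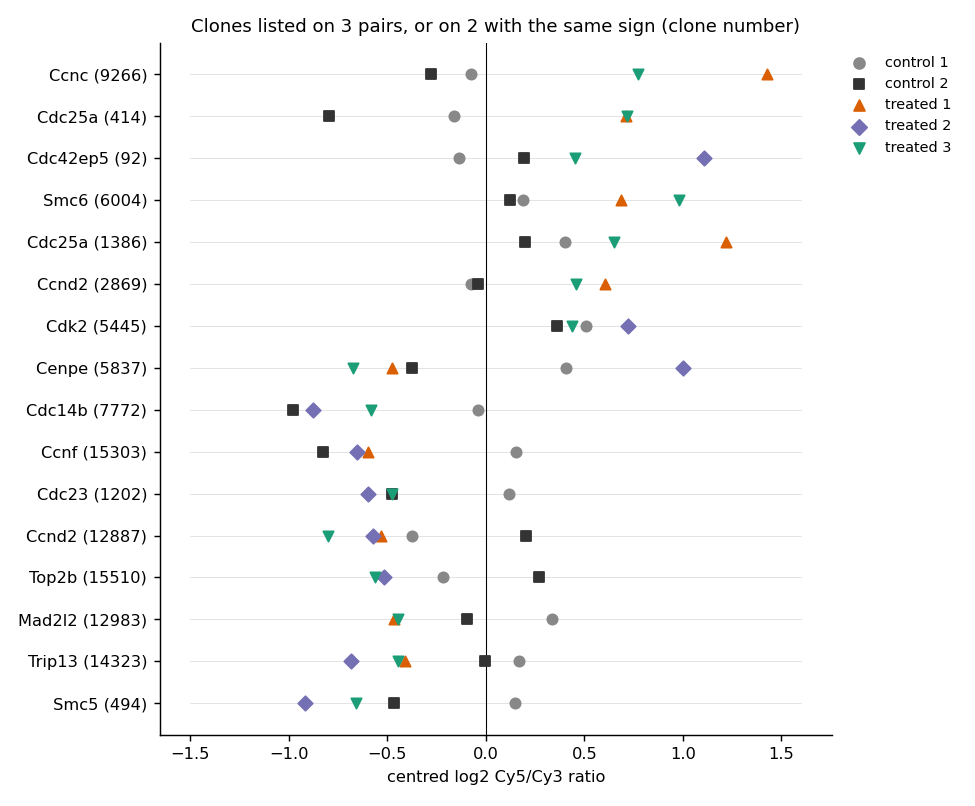
Points give the centred log2 Cy5/Cy3 ratio on each of the 5 pairs for the clones listed on all treated pairs, or on 2 with the same sign, ordered by limma difference. Treated values lie beyond both control values for clones such as Ccnc, Smc6 and Trip13, and between the control values for Ccnf and Cdc14b. Only outlying treated values were listed, which favours positions beyond the control values.

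Clones of the same gene and spots of the same clone give the repeatability of these values. Of 35 genes with at least 2 clones, 11 had at least 2 clones with a direction, and in 3 of these (Ccnd2, Cdc25a and Smc1b) the clones pointed both ways. In 3 all were higher (Ccng1, Rrm2 and Smc4), and in 5 all were lower (Ccnf, Cdc14b, Cdc23, Cdc73 and Pole4). Direction here is the sign of the treated ratios and takes no account of the control pairs. Cdc14b clone 1136, at -0.63 on treated pair 1, had a limma difference of 0.054. Pole4 clone 15209 counted as lower by 2 spots on treated pair 3 against 1 higher spot on treated pair 1. The agreement of clones was not counted over all genes, so these counts have no background beside them. On the control pairs the 2 spots of a member clone had the same sign in 58.9% and 55.8% of clones, against 58.7% and 63.6% of all clones. Where both spots were listed on a treated pair, and so both lay away from the centre, they had the same sign in 2 of 2, 4 of 4 and 9 of 9 member clones, and in 86.6%, 84.9% and 92.9% of all such clones. Of 101 clone values on treated pairs, 86 rested on a single listed spot.

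Ratios and intensities did not always move together. Each channel of a treated pair was also set against the control pairs' channel of the same dye, after scaling each pair to the control pairs. Clones were split here by the sign of the limma difference, not of the ratio. Of 39 members with a difference above 0, 21 had more Cy5 signal than the control pairs (53.8%, against 65.5% of all such clones). Of 39 with a difference below 0, 25 had less (64.1%, against 64.2%). In the mitosis group 4 of 12 clones with a difference above 0 had more Cy5 signal. The median Cy3 signal of these 12 was 0.93 lower on the log2 scale, a channel that held control RNA on every array. Of the 34 named differences with a limma value, 16 turned their sign when Cy5 channels were compared alone. Ccnc, for which the ratio was higher, had 1.35 less Cy3 signal and 0.068 less Cy5 signal. For Cdc25a clone 414 the values were 1.58 less in Cy3 and 0.39 less in Cy5. By contrast, Ccnd2 clone 2869 had 0.27 more in Cy3 and 0.86 more in Cy5, and Cdc42ep5 had 0.017 more and 0.77 more.

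Of 78 listed member clones, 2 were brighter on the treated pairs by over 1 on the log2 scale in both channels, Trip13 and Top2a. In both channels 3 were dimmer by over 1, clones of Ccnd1, Cdk18 and Smc1b. Apart from Trip13 and Ccnd1 these were named after their values were seen. Such shifts were not counted over all clones. Top2a, the topoisomerase II of dividing cells, was listed on treated pair 1 at intensities of 3579 in Cy3 and 4999 in Cy5, while its control pairs differed from each other, at 867 and 837.5 on control pair 1 and 5818.5 and 5574.5 on control pair 2. Ccnd1 was among the dimmer clones, at 487 and 811 on treated pair 2 against 1676 and 2999.5 on control pair 1 and 4178.5 and 4468 on control pair 2.

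**Figure D5:**
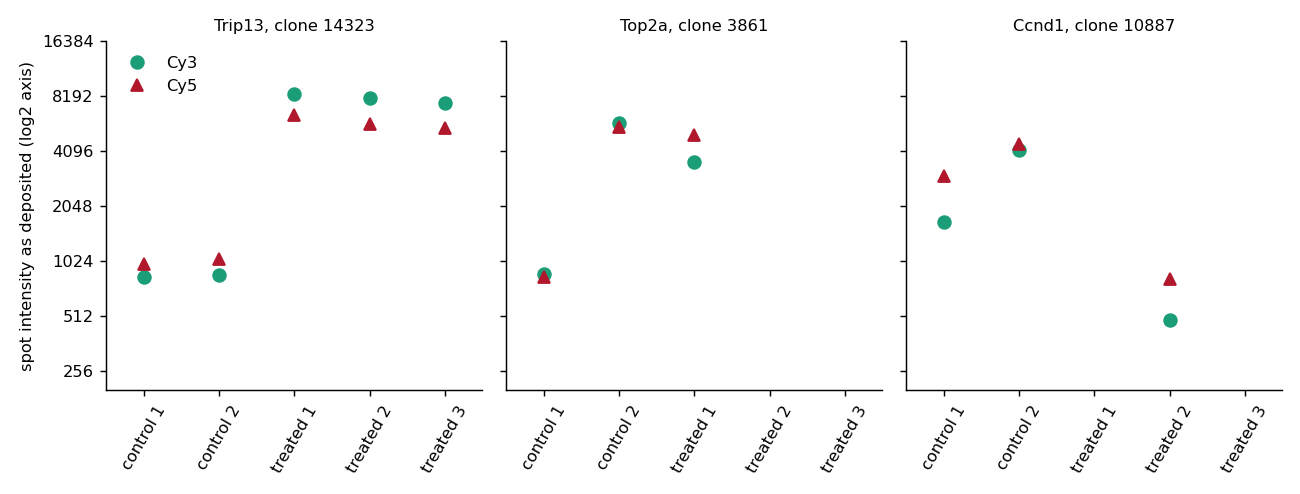
Points give the deposited spot intensity, on a log2 axis, of the Trip13, Top2a and Ccnd1 clones in the Cy3 (circles) and Cy5 (triangles) channels of each pair; a missing point means that the clone was not listed. Trip13 lies between 832 and 1055 on both control pairs and between 5454 and 8414 on the treated pairs in both dyes, so its arrays differ more than its channels do.

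A list of 71 further cell cycle genes outside the symbol rule, such as CDK inhibitors, E2F and retinoblastoma family genes, licensing factors and mitotic kinesins, had 74 clones of 54 genes. Of these clones 28 were listed, 15 higher (20.27%) and 11 lower (14.86%), beside 24.2% and 23.2% of all clones. None passed the limma test after adjustment, and 10 of 28 had an unadjusted p under 0.05, beside 32.2% of all clones fitted. The genes listed on 2 treated pairs with the same sign were Ube2c, Gadd45g and Ncapd2, with higher ratios, and Ncapg, with lower ones. Ube2c, the ubiquitin-conjugating enzyme of the anaphase-promoting complex, stood at 0.78 and 0.69 on treated pairs 1 and 2, each the mean of both spots. These values lay above 0.11 and -0.13 on the control pairs, with a limma difference of 0.75 (SE 0.22, adjusted p = 0.145). Gadd45g, a stress-response gene, had a difference of 0.42 (SE 0.22, limma adjusted p = 0.199). The condensin subunits Ncapd2 and Ncapg lay on opposite sides, at 0.75 (SE 0.29, limma adjusted p = 0.15) and -0.35 (SE 0.26, limma adjusted p = 0.314).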

How the data were processed

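Spot intensities were measured on 2-colour cDNA arrays and quantified with Imagene 4.0, per the series' design text. The intensity values the authors deposited are linear, 1 column per channel. Background correction, normalisation and the rule that kept only outlying spots on the treated arrays are not given in the sources. Channels were grouped by title, and control pairs 1 and 2 were joined by title number. Gene symbols come from the platform annotation, which is old.

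Log2 Cy5/Cy3 ratios were centred by lowess on intensity for control pairs (statsmodels 0.14.6, span 0.2). For treated pairs they were centred on the midpoint of the empty band between listed spots, in windows of 150 spots smoothed with a span of 0.3. The 2 spots of a clone were averaged. limma 3.58.1 in R 4.3.3 compared the treated with the control pairs, with Benjamini-Hochberg adjustment, a threshold of 0.05, and missing treated values left out. With a single treated pair, the spread comes from the control pairs and from other clones. Treated values are outlying by selection, so differences can be too large in size and errors too small. Nothing in the labels says that replicates are separate cultures, so p-values reflect no more than how far these samples spread, and that spread may be technical. The number of arrays limits the precision. The limma fit was tried on simulated data. Pass criteria were set for complete values alone, not for values cut to outlying ratios as on the treated pairs. The trial therefore does not show how well the fit works on such values.

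Genes and lists were chosen with earlier results of these data known. Named were clones valued on 3 treated pairs or listed on 2 with the same sign, the 2 highest and 2 lowest differences per role, genes with at least 3 clones as counts, and 9 genes fixed by name: Ccnd1, Cdk4, Pcna, Mcm2, Rrm2, Birc5, Mki67, Bub1b and Cdc20. The ratio holds the pairing of channels, which the titles give by array for treated pairs; no label states that the joined control channels share a slide, and every control ratio assumes it. As an alternative, channels were fitted with the pair as a random block (statmod 1.5.0, correlation 0.813). Other alternatives changed the centring, a value added to intensities (50), the spots used (dim ones under 300 left out, or both spots required), the adjusted p threshold (0.1) and the pairs left out.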

Additional observations from a re-analysis of the deposited data

How the results depend on the processing

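Between 55 and 78 member clones were fitted in most settings, and no setting but the one requiring both spots called a member. Of 14 members fitted, that one called 1 higher (Ccnc) and 1 lower (Pole4). Beside this, 8.11% of all 1233 clones fitted were called higher and 7.7% lower. Of 450 comparisons of 34 named differences over 15 settings, 49 turned the sign, and 12 differences never turned. Many of the 450 could not turn. The intensity trend leaves every difference as it is, as does leaving out a treated pair on which a clone was not listed. Cy5 channels alone and no replicate block share the same 16 turns, which the 49 counts under both settings. These counts therefore do not measure how robust the differences are. The other settings left the calls of the named clones as they were, except that Ccnc passed with both spots required.

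Comparing Cy5 channels alone turned 16: Birc5 0.084, Ccnc -0.068, Ccnd1 -1.58, Ccnd2 clone 12887 0.063, Cdc25a clone 414 -0.39, Cdc27 0.34, Cdc73 clone 4479 0.13, Cenpe 0.35, Cenps -0.39, Mad2l2 0.36, Mcm3ap -0.67, Orc4 0.37, Rrm2 clone 8 -0.26, Smc4 clone 6317 -0.12, Smc6 -0.14 and Trip13 2.88. Fitting channels with no replicate block gave the same values by construction. With the replicate block (pair as a random block), Cenpe was 0.013 and Trip13 0.054, and no call changed. Cutting the control pairs to outlying ratios gave Ccnd2 clone 12887 0.073, Ccnf 0.20, Cdc14b 0.25, Cdc23 clone 1202 0.013, Cdc25a clone 1386 -0.22, Mki67 -0.19 and Rrm2 clone 8 -0.0078. Array median centring gave Cdc42ep1 -0.045 and Rrm2 clone 8 -0.14, and no centring gave Cenpe 0.041. Leaving out each control pair gave Ccnf -0.78 to 0.20 and Cdc14b -0.69 to 0.25, the positive values without control pair 1, where Cenpe was 0.33. Leaving out treated pairs 1, 2 and 3 gave Cenpe 0.15, -0.59 and 0.25. The cause was not tested.

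With 1 clone per gene, net higher counts were 24 over all members, 9 for cyclins and CDKs (4 lower) and 7 for mitosis. With control pair 1 in place of the treated pairs, members were 23 higher and 10 lower, cyclins and CDKs 7 higher, mitosis 5 and 2, with 0 others lower and 2 replication clones lower. With control pair 2 they were 10 and 18, cyclins and CDKs 4 higher, mitosis 4 and 7, others 1 and 1, replication 1 and 1. Leaving out each treated pair gave 10 to 15 higher and 4 to 8 lower for cyclins and CDKs, 7 to 9 and 15 to 16 for mitosis, 5 to 7 and 4 to 7 for replication, and 1 to 3 and 1 to 4 for the others. Fits on clones valued in all pairs held no member when both spots were required or control pairs were cut.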
